A study of Homo sapiens with 16 samples.

Results

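The effect of gemcitabine on PANC1 cells was measured by RNA sequencing in 4 of the 16 libraries of the series. PANC1 is an established human cell line derived from a pancreatic ductal adenocarcinoma. In 2 libraries the cells had received 40 nmol/L gemcitabine for 24 hours, and in 2 libraries they were untreated controls. The members are all genes of these libraries: 63677 Ensembl identifiers were counted, and 16909 of them passed the filter on low counts and were tested. For comparison, 2 PANC1 libraries with 50 μmol/L genistein (a plant isoflavone) and 2 with both drugs were used. From MiaPaCa2, another pancreatic cancer line, 2 control and 2 gemcitabine libraries were compared. The MiaPaCa2 libraries with genistein, alone or with gemcitabine, at the same doses and time, entered only the models of all 16 libraries. Every group comes from 1 line, so the replicates describe that line and not pancreatic tumors in general.

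Gemcitabine is a deoxycytidine analogue. Nucleoside transporters carry it into the cell, deoxycytidine kinase phosphorylates it, its triphosphate is built into DNA and stops the elongating strand, and its diphosphate inhibits ribonucleotide reductase, the enzyme that makes deoxynucleotides. Replication forks that stall activate the ATR and CHK1 checkpoint kinases, which hold cells in S phase. E2F transcription factors drive the genes of S phase, the genes of mitosis follow later in the cycle, and immediate early genes are transcription factor genes that respond within minutes to growth signals and stress.

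Between 17514441 and 31991860 reads were counted on genes in the 4 libraries. Replicates were further apart than counting error allows: chi-square per degree of freedom was 35.2 between the controls and 7.76 between the gemcitabine libraries, and all 4 were kept as separate samples. The controls stood apart from each other in their trend with GC content (the share of G and C in a gene's exons). Against the mean of the PANC1 libraries, the slope of log2 counts for each 10 points of GC was 0.30 in control replicate 1 -0.0741 in control replicate 2, and 0.052 and -0.133 in the gemcitabine libraries. Calls after removal of each library's GC trend are given beside the results whose counts they move by over 1.5 times. The 5 PANC1 line markers summed to 516 to 587 CPM (counts scaled to a common library size by TMM) in the controls and to 432 to 468 CPM with gemcitabine, and the 6 MiaPaCa2 markers to 1.07 to 1.27 and 1.04 to 1.34 CPM. The 6 leukocyte markers summed to 1.84 to 2.64 CPM and 2.91 to 3.73 CPM, the 5 endothelial markers to 0.291 to 0.342 CPM and 0.69 to 0.78 CPM, and the 5 fibroblast markers to 274 to 376 CPM and 247 to 309 CPM. Of these, 3 leukocyte, 3 endothelial and 2 fibroblast markers had at most 3 counts in every library. COL1A1 made up most of the fibroblast sum, with 7512 and 8245 counts in the controls and 5401 and 4870 with gemcitabine.

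Gemcitabine changed the expression of 1272 genes, which is 7.52% of those tested. The expression of 759 genes rose (4.49%) and that of 513 fell (3.03%). A gene was called when its adjusted p was at most 0.05 in limma-voom, its log2 fold change was at least 0.4 in size and its mean FPKM was above 1 in the gemcitabine libraries. The median log2 fold change was 0.95 among the genes called higher and -0.66 among those called lower, against 0.028 over all genes, and the median standard error (SE) was 0.197. With gemcitabine replicate 1 or 2 left out, which leaves that arm with 1 library, 66 and 64 genes were called. Without control replicate 1 or replicate 2, 701 and 1919 were called.

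**Figure D1:**
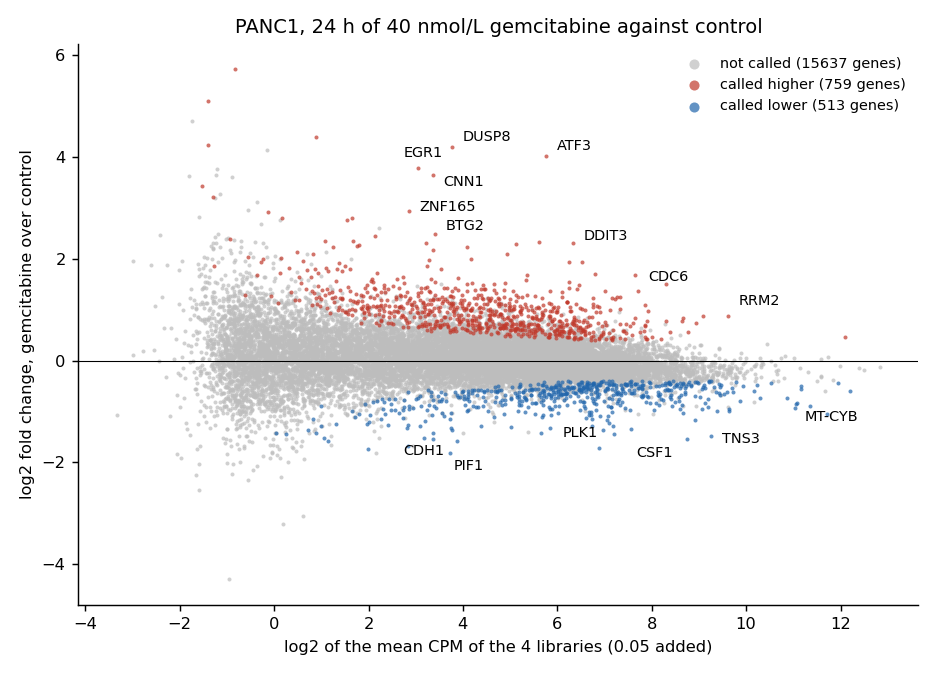
Each point is 1 of 16909 genes, with the log2 of the mean CPM of the 4 libraries on the horizontal axis and the log2 fold change of gemcitabine over control on the vertical axis. The 759 genes called higher (red) reach further from 0 than the 513 called lower (blue), and the points at the top left, above DUSP8, are genes with 0 to 9 counts in each control library.

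Of the 10 largest rises among genes with a mean of at least 50 counts, 5 were immediate early genes. ATF3, a stress-induced transcription factor (chr1:212738676-212794119, GRCh37), was counted at 6.75 and 5.82 CPM in the controls and at 99.5 and 103.8 CPM with gemcitabine. The groups lay far apart, with a log2 fold change of 4.03 (SE 0.14, adjusted p = 5.01e-05). DUSP8, a phosphatase that switches off the stress kinases JNK and p38 (chr11:1575281-1593501, GRCh37), was at 1.51 and 1.26 CPM in the controls and at 29.1 and 22.3 CPM with gemcitabine. Its log2 fold change of 4.20 (SE 0.30, adjusted p = 0.000871) was the largest among genes with a mean of at least 50 counts. EGR1, a growth factor responsive transcription factor, went from 1.07 and 1.10 CPM to 15.8 and 14.8 CPM. That rise had a log2 fold change of 3.79 (SE 0.24, adjusted p = 0.000696).

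The promoters of these 3 genes are shown because their letters hold elements known to respond to growth signals and stress. They come from RefSeq (GRCh38.p14), on the strand of the gene, with each match in capitals. In EGR1 (chr5:138465334-138465445, plus strand) the capitals are 2 CArG boxes, the element bound by the serum response factor, of which the nearer begins 83 bases before the start. In ATF3 (chr1:212565244-212565331, plus strand) they are a variant of the cyclic AMP response element (CRE), 123 bases before the start. In DUSP8 (chr11:1572298-1572429, minus strand) they are 2 copies of the CRE itself, 118 and 74 bases before the start.
EGR1: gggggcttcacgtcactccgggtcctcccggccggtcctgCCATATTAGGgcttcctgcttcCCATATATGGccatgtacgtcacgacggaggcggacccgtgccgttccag
ATF3: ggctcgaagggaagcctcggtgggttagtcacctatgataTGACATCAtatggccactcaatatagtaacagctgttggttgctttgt
DUSP8: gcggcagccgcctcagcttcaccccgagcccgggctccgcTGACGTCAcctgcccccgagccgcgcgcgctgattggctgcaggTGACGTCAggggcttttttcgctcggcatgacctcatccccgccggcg

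In windows from 250 bases before to 50 bases after the start, the CRE (TGACGTCA) was found in 1.98% of 27305 promoters, and its variants (TGACGTAA or TGATGTCA) in 3.18%, on either strand. The variants were in 6 of the 23 immediate early promoters with a sequence (26.1%), among them JUN and FOSB. A CArG box was in 2 of the 23 (8.7%), against 351 of the 27305 promoters. A match describes these letters only and does not show that a factor was bound.

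Of 29 immediate early genes tested, 12 were called higher and none lower, and 24 had a positive fold change. The median log2 fold change of the list was 0.99. FOS was at 0.88 and 0.679 CPM in the controls and at 5.68 and 5.18 CPM with gemcitabine, a log2 fold change of 2.81 (SE 0.27, adjusted p = 0.00245). FOSL2, which codes for a more stable member of the same AP-1 family, rose from 39.2 and 36.8 CPM to 152 and 140 CPM (log2 fold change 1.94, SE 0.11, adjusted p = 0.000574). JUN, their dimer partner, rose from 57.1 and 47.8 CPM to 184 and 156 CPM (log2 fold change 1.71). For both genes the gemcitabine libraries lay above the controls without overlap, as they did for 28.5% of all genes.

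The nuclear receptor NR4A1 (log2 fold change 2.45), FOSB (2.35), the kinase SGK1 (1.60), KLF4 (1.08), KLF10 (0.99), JUND (0.99) and KLF6 (0.97) complete the 12 together with ATF3 and EGR1. JUNB was at 17.9 and 12.6 CPM in the controls and at 32.3 and 25.1 CPM with gemcitabine, and its log2 fold change of 0.93 did not pass (SE 0.37, adjusted p = 0.159). EGR2, EGR4 and NR4A3 had at most 3 counts in each control library and between 5 and 15 with gemcitabine, which is below the level that could be called. When either gemcitabine library (replicate 1, then 2) was omitted, 7 and 6 immediate early genes were called.

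The list of ERK feedback genes, which holds targets and inhibitors of kinase signaling, split. Of 22 tested, 3 rose (5 with the GC trends removed) and 4 fell, with a median log2 fold change of 0.12. The rises were all phosphatases: DUSP8, DUSP10, which also acts on JNK and p38 (1.82, SE 0.30, adjusted p = 0.014), and DUSP5, which acts on nuclear ERK (1.23, SE 0.12, adjusted p = 0.00283). The falls were in the receptor-level inhibitors SPRY1 (log2 fold change -0.88, SE 0.15, adjusted p = 0.0168) and SPRY4 (-0.50), in the ephrin receptor EPHA2 (-0.78) and in PHLDA1 (-0.44). DUSP6, the usual feedback phosphatase of cytoplasmic ERK, was at 14.9 and 14.7 CPM in the controls and at 20.8 and 19.1 CPM with gemcitabine and did not pass (adjusted p = 0.0947). Among 8 genes of EGFR ligands and receptors 1 was called, the ligand HBEGF, which rose from 6.55 and 6.59 CPM to 17.8 and 17.6 CPM (log2 fold change 1.43, SE 0.15, adjusted p = 0.00312). Without gemcitabine replicate 1 or replicate 2, 2 and 1 of the 3 phosphatases and none of the 4 lower genes were called, nor was HBEGF.

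In the integrated stress response, which slows translation and induces ATF4 targets, 4 of 28 genes rose and 2 fell. DDIT3, a transcription factor of prolonged stress also known as CHOP, was at 25.9 and 28 CPM in the controls and at 131 and 135 CPM with gemcitabine, a log2 fold change of 2.30 (SE 0.11, adjusted p = 0.000357). PPP1R15A, which restores translation by directing dephosphorylation of eIF2α, rose from 22.7 and 16.8 CPM to 66.1 and 58.2 CPM (log2 fold change 1.68, SE 0.18, adjusted p = 0.00312). CEBPG rose by less (0.56), and ATF3 is the fourth. ATF4 itself and its target ASNS, an asparagine synthetase, had log2 fold changes of 0.26 and 0.08 and did not pass (adjusted p = 0.138 and 0.635). DDIT4, an inhibitor of mTORC1, fell from 245 and 186 CPM to 84.5 and 72.4 CPM (log2 fold change -1.43, SE 0.18, adjusted p = 0.00557), and the amino acid transporter SLC7A5 fell by 0.63 on the log2 scale. The list's median log2 fold change was 0.15. Part of DDIT3's exon sequence (31.6%) overlaps a gene on the opposite strand, and the strand setting of the counting is not given in the sources used here.

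Of 26 targets of p53 tested, 4 rose and none fell, and the median log2 fold change was 0.17. GADD45A, a sensor of genotoxic stress, rose from 29.6 and 33.1 CPM to 129 and 113.2 CPM (log2 fold change 1.94, SE 0.14, adjusted p = 0.000871). BTG2, an antiproliferative gene, rose from 3.47 and 2.94 CPM to 18.4 and 17.4 CPM (2.49, SE 0.21, adjusted p = 0.00149). AEN, an apoptosis-enhancing nuclease, had a log2 fold change of 1.37, and PMAIP1, the pro-apoptotic BH3 protein NOXA, one of 1.45. CDKN1A, the cell cycle inhibitor p21, was at 144 and 113.9 CPM in the controls and at 178 and 163 CPM with gemcitabine, and MDM2, the ubiquitin ligase of p53, at 43.8 and 64 CPM and at 67.8 and 74 CPM. Neither passed (adjusted p = 0.107 and 0.229), and for MDM2 the difference between the controls was larger than that between control replicate 2 and either gemcitabine library. With gemcitabine replicate 1 or 2 left out, 3 and 3 genes of this list were called, while 2 and 3 of the integrated stress response were called higher and none lower. The GC correction gave 8 higher p53 targets, and 8 higher and 4 lower genes of the integrated stress response.

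**Figure D2:**
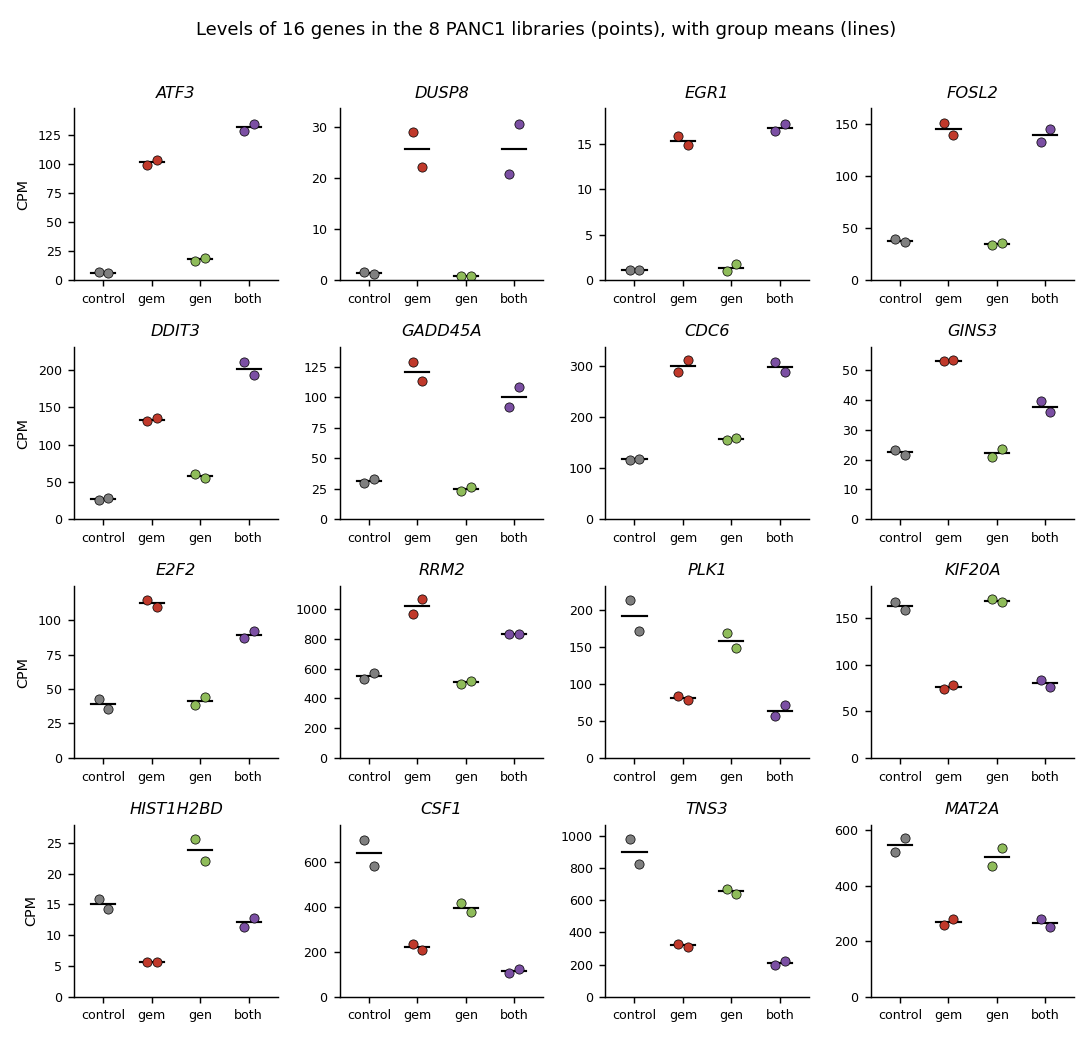
Points are the CPM of 16 genes in the 8 PANC1 libraries, on linear axes from 0, for control, gemcitabine (gem), genistein (gen) and both drugs, and lines are the means of 2 libraries. The 16 genes were chosen among those called, so in every panel both gemcitabine libraries lie on one side of both controls. Over all genes, 28.5% had both gemcitabine libraries above both controls and 24.4% below. In these 16 genes the libraries with both drugs lie on the same side of those with genistein.

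Genes of S phase were among those that rose. Of 17 E2F factors and pocket proteins 6 rose and none fell, with a median log2 fold change of 0.22. E2F2, an activator, rose from 42.6 and 35.2 CPM to 114.8 and 109.7 CPM (log2 fold change 1.55, SE 0.12, adjusted p = 0.00128). E2F1, also an activator, rose from 160 and 129 CPM to 271 and 241 CPM (0.84, SE 0.14, adjusted p = 0.0152). The atypical repressors E2F8 and E2F7 rose by 1.59 and 1.36, and MYBL2 (0.78) and LIN54 (1.22), both subunits of complexes on cell cycle promoters, rose too. Activators and repressors of the family were both higher. When either gemcitabine library (replicate 1, then 2) was omitted, 1 and 1 of the 6 were called. The GC correction gave 6 higher and 1 lower.

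Among 24 cyclins and cell cycle kinases, the 4 that rose act at the start of S phase and the 2 that fell act in mitosis. CCNE1, a cyclin that starts S phase with CDK2, rose from 44.2 and 40.6 CPM to 86.2 and 87.6 CPM (log2 fold change 1.04, SE 0.11, adjusted p = 0.00283). CCNE2 (2.09), the phosphatase CDC25A (1.10) and CDK2 (0.68) rose as well. CCNB1, the main mitotic cyclin, fell from 434 and 456 CPM to 228 and 254 CPM (log2 fold change -0.89, SE 0.09, adjusted p = 0.00283), and CCNB2 fell by 0.63 on the log2 scale. CCND1, the cyclin of G1, was at 214 and 221 CPM in the controls and at 202 and 198 CPM with gemcitabine (adjusted p = 0.369). Without gemcitabine replicate 1 or replicate 2, 2 and 0 were called higher and 0 and 1 lower, and with the GC trends removed 7 and 4. Exons of CCNE2 overlap the opposite strand over 37.1% of their length.

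Many genes for replication proteins rose. Of 18 genes for the licensing of replication origins 8 rose and none fell, and of 39 genes for the replication fork 19 rose and none fell. The median log2 fold changes were 0.62 and 0.63, and 38 of the 39 fork genes were above 0. CDC6, which loads the MCM helicase on origins (chr17:38444131-38460909, GRCh37), was at 115.4 and 118.9 CPM in the controls and at 289 and 312 CPM with gemcitabine, a log2 fold change of 1.36 (SE 0.09, adjusted p = 0.000696). MCM2, a subunit of that helicase, rose from 404 and 334 CPM to 649 and 572 CPM (0.74, SE 0.13, adjusted p = 0.0182). MCM10 (1.14), MCM4 (0.88), ORC6 (0.82), ORC1 (0.69), GMNN (0.67) and MCM3 (0.57) complete the origin genes.

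On the fork side, GINS3, a subunit of the active helicase, rose from 23.3 and 21.6 CPM to 53.2 and 53.5 CPM (log2 fold change 1.26, SE 0.12, adjusted p = 0.00246). POLD3, a subunit of DNA polymerase delta, rose from 59.8 and 68.8 CPM to 146 and 158 CPM (1.24, SE 0.12, adjusted p = 0.00222). The clamp loader RFC2 (1.01), CLSPN, which passes the checkpoint signal to CHK1 (1.053), PRIM1 (1.12), CDC45 (0.78) and the flap nuclease FEN1 (0.73) also rose. PCNA, the sliding clamp, was at 276 and 316 CPM and at 357 and 381 CPM and did not pass (adjusted p = 0.0896). With gemcitabine replicate 1 or 2 left out, 2 and 2 origin genes and 3 and 3 fork genes were called higher. With the GC trends removed 11 origin genes were higher and 1 lower, and 25 fork genes were higher.

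The promoters of CDC6, MCM2 and GINS3 are shown as examples of the E2F site in this group. In RefSeq (GRCh38.p14) the capitals mark an E2F match 7 bases after the start in CDC6 (chr17:40287846-40287908, plus strand), 2 overlapping matches from 2 bases after the start in MCM2 (chr3:127598373-127598440, plus strand) and 1 match 5 bases before the start in GINS3 (chr16:58392426-58392500, plus strand).
CDC6: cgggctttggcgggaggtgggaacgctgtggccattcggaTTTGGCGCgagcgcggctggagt
MCM2: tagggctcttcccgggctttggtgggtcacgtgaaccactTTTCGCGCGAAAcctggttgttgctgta
GINS3: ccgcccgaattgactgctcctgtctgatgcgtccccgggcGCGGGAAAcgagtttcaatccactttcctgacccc

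The letters searched were TTTCCCGC, TTTGGCGC, TTTCGCGC and TTTGCCGC on either strand. They were in 3.33% of all promoters, in 7 of the 16 origin promoters with a sequence (43.8%), in 12 of 32 fork promoters (37.5%) and in 2 of 32 promoters of mitosis genes (6.25%). Within the fork list, 7 of the 16 promoters of genes called higher held a match (43.8%). Within the origin list it was 3 of 7 (42.9%), so the matches do not separate the members called higher from the others.

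The supply of nucleotides and the handling of the drug moved less. Of 25 nucleotide genes 3 rose and none fell, with a median log2 fold change of 0.13. RRM2 and RRM1 code for the subunits of ribonucleotide reductase. RRM2 rose from 534 and 573 CPM to 967 and 1071 CPM (log2 fold change 0.88, SE 0.08, adjusted p = 0.00157), and RRM1 from 264 and 318 CPM to 493 and 556 CPM (0.85, SE 0.13, adjusted p = 0.0102). RRM2B, the subunit used outside S phase, was at 22.6 and 43.1 CPM in the controls and at 33.4 and 41.8 CPM with gemcitabine, with overlapping groups (adjusted p = 0.709). When either gemcitabine library (replicate 1, then 2) was omitted, 1 and 1 nucleotide genes were called, and with the GC trends removed 4 were higher and 1 lower.

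None of 13 genes for the transport and metabolism of gemcitabine that were tested passed (4 more had too few counts), and the median log2 fold change was -0.16. SLC29A1, the main nucleoside transporter, was at 687 and 578 CPM in the controls and at 512 and 480 CPM with gemcitabine (log2 fold change -0.34, adjusted p = 0.0719). DCK, which starts the activation of the drug, was at 24 and 36.4 CPM and at 42.2 and 51.4 CPM (0.63, adjusted p = 0.115). CDA, which inactivates it, had at most 18 counts in a library. With the GC trends removed 1 of the 13 was called, and without control replicate 2 there were 2 higher and 1 lower.

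Of 45 genes of the damage checkpoint and recombination 13 rose and 1 fell, and the median log2 fold change was 0.54. EXO1, a nuclease that resects DNA ends, rose from 39.9 and 53.1 CPM to 118 and 131 CPM (log2 fold change 1.41, SE 0.18, adjusted p = 0.00631). BRIP1, a helicase of the Fanconi anemia pathway, rose from 9.73 and 17 CPM to 34.7 and 39.4 CPM (SE of the log2 fold change 0.27, adjusted p = 0.0174), and BARD1, part of a ubiquitin ligase in recombination, by 1.21. FANCF fell by 0.72 on the log2 scale. The checkpoint kinase CHEK1 was at 76.5 and 107.1 CPM in the controls and at 111.1 and 125.7 CPM with gemcitabine and did not pass (adjusted p = 0.259). The genes of this list have a low GC content, with a median of 42.3%. Removal of the GC trends gave 22 higher with a median log2 fold change of 0.41, and without gemcitabine replicate 1 or replicate 2 none was called.

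Several genes of mitosis fell. Of 38 tested 7 fell and 1 rose, and the median log2 fold change was -0.09, with 24 of the 38 below 0. PLK1, a kinase that drives entry into and progress through mitosis (chr16:23688977-23701688, GRCh37), was at 214 and 172 CPM in the controls and at 83.9 and 79.1 CPM with gemcitabine. Its log2 fold change was -1.22 (SE 0.15, adjusted p = 0.00548). KIF20A, a kinesin of cytokinesis, fell from 167 and 158 CPM to 74.2 and 77.7 CPM (-1.09, SE 0.09, adjusted p = 0.00157). CDC20, the activator of the anaphase ubiquitin ligase, fell from 399 and 304 CPM to 188 and 166 CPM (-0.96, SE 0.15, adjusted p = 0.0111). CDCA8 (-0.64), PTTG1 (-0.60), AURKA (-0.56) and CENPA (-0.49) were the others, and the kinesin KIF2C rose by 0.43. Without gemcitabine replicate 1 or replicate 2, 1 and 1 were called lower. With the GC trends removed 12 were lower and 2 higher, with a median log2 fold change of -0.21.

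The promoters of PLK1 (chr16:23678820-23678905, plus strand) and CDCA8 (chr1:37692453-37692538, plus strand, GRCh38.p14) are shown with the cell cycle genes homology region (CHR) in capitals, the element through which the DREAM complex represses and MuvB complexes activate genes of G2 and mitosis. It begins 29 and 23 bases before the start.
PLK1: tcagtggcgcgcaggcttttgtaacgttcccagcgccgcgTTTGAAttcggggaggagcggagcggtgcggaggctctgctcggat
CDCA8: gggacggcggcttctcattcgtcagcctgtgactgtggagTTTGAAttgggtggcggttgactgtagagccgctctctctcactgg

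The CHR letters TTTGAA, on either strand, were in 26 of the 32 mitosis promoters with a sequence (81.2%) and in 15.4% of all promoters. They were in none of the 32 fork promoters. CCAAT was also in 26 of the 32 mitosis promoters, against 35.7% of all. Of the 6 promoters of mitosis genes called lower that had a sequence, 4 held the CHR (66.7%), so the matches do not separate the members that fell from those that did not.

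Some histone genes fell. Histone transcripts mostly lack a poly-A tail, and poly-A libraries count only the part that carries one. Of 35 genes of the replication-dependent histones 16 were tested, 5 fell and none rose, and the median log2 fold change was -0.80. HIST1H2BD was at 15.9 and 14.2 CPM in the controls and at 5.62 and 5.57 CPM with gemcitabine (log2 fold change -1.41, SE 0.16, adjusted p = 0.00415). HIST1H2AC fell from 18.7 and 20.3 CPM to 7.24 and 7.99 CPM (-1.36, SE 0.15, adjusted p = 0.00402). HIST1H2BC (-1.52), HIST1H2BK (-0.83) and HIST1H1C (-0.76) were the others. Members of the family share sequence, and reads with several alignments had been removed, so levels of single histone genes are uncertain. With either gemcitabine library omitted none was called.

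**Figure D3:**
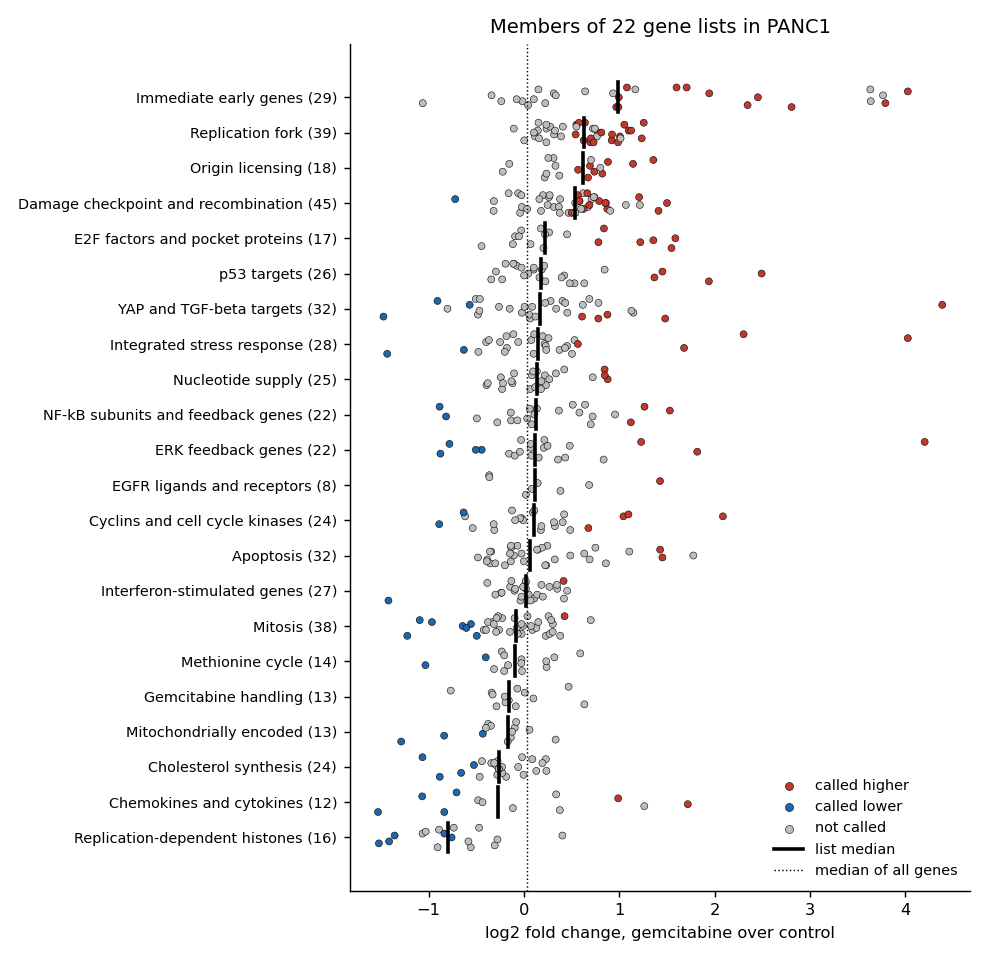
Each point is a tested member of 1 of 22 gene lists (number tested in brackets) at its log2 fold change of gemcitabine over control, red when called higher, blue when called lower and grey when not called, and bars are list medians. The lists run from immediate early genes (median 0.99) to replication-dependent histones (-0.80), and the dotted line is the median of all genes (0.028).

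In the NF-κB pathway 3 of 22 genes rose and 2 fell. TNFAIP3, a deubiquitinase that ends the signal, rose from 8.41 and 10.2 CPM to 27.8 and 26.2 CPM (log2 fold change 1.53, SE 0.16, adjusted p = 0.00328), and the subunits REL and RELB rose by 1.26 and 1.12. NFKBIA, the inhibitor that holds NF-κB in the cytoplasm, fell from 87.7 and 74.2 CPM to 42.5 and 44.2 CPM (-0.88, SE 0.14, adjusted p = 0.0112). TNFAIP2 fell by 0.82 on the log2 scale. The negative regulators of the pathway thus moved in opposite directions. Of REL's exon length 33.3% is shared with another gene on the same strand. With the GC trends removed 9 genes were called higher, and without gemcitabine replicate 1 or replicate 2 none was called.

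Of 12 chemokines and cytokines tested 4 fell and 2 rose. CSF1, the growth factor of macrophages, fell from 699 and 584 CPM to 234 and 207 CPM (log2 fold change -1.53, SE 0.12, adjusted p = 0.00129). CXCL1 (-1.07), CX3CL1 (-0.83) and CCL2 (-0.71) fell too. IL8 rose from 0.684 and 0.97 CPM to 2.12 and 3.599 CPM (1.72, SE 0.43, adjusted p = 0.0486) and IL11 by 0.99. With gemcitabine replicate 1 or 2 left out, 1 and 1 were called lower, and without any one of the 4 libraries none was called higher. Interferon-stimulated genes did not move together, since 1 of 27 rose (OAS3, 0.42), 1 fell (BST2, -1.42) and the median log2 fold change was 0.02. Neither call held without a gemcitabine library, and the GC correction gave 1 higher and 2 lower.

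Among 32 targets of YAP and TGF-β 5 rose and 3 fell. CTGF, a matricellular protein, rose from 46.4 and 46.4 CPM to 125 and 134 CPM (log2 fold change 1.48, SE 0.10, adjusted p = 0.000696). CYR61, a relative of it, rose from 244 and 224 CPM to 409 and 391.6 CPM (0.78). ANKRD1 had 1 and 9 counts in the controls and 68 and 62 with gemcitabine (adjusted p = 0.00852). AMOTL1 (0.88) and ID2 (0.61) rose as well. SMAD3, which carries the TGF-β signal, fell from 789 and 748 CPM to 407 and 411 CPM (-0.91, SE 0.07, adjusted p = 0.00101), TNS3, a protein of focal adhesions, from 977 and 822 CPM to 330 and 312 CPM (-1.47, SE 0.11, adjusted p = 0.000871), and LTBP2 by 0.57 on the log2 scale. When either gemcitabine library (replicate 1, then 2) was omitted, 1 and 2 were called higher and 2 and 2 lower. The GC correction gave 10 higher and 4 lower.

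Markers of cell shape and lineage were measured beside these. The epithelial markers CDH1 (E-cadherin) and KRT19 (keratin 19) fell, and so did VIM (vimentin), a marker of the mesenchymal state. CDH1 fell from 23.6 and 20.5 CPM to 7.91 and 6.85 CPM (log2 fold change -1.57, SE 0.18, adjusted p = 0.00402), KRT19 from 811 and 632 CPM to 440 and 362 CPM (-0.83, adjusted p = 0.0261) and VIM from 5896 and 5522 CPM to 3853 and 3692 CPM (-0.60, SE 0.06, adjusted p = 0.00312). The 7 epithelial markers all had a negative fold change, 2 of them called, and summed to 2010 to 2660 CPM in the controls and to 1390 to 1700 CPM with gemcitabine. Of the 5 mesenchymal markers 3 had a positive fold change and the median log2 fold change was 0.30, with VIM the only one called. Their sum was 5590 to 5950 CPM in the controls and 3760 to 3910 CPM with gemcitabine, and VIM made up nearly all of it. SNAI2 had 5 and 4 counts in the controls and 17 and 19 with gemcitabine, below the FPKM that could be called, and ZEB1 was at 11.1 and 19.2 CPM and at 15.8 and 21.1 CPM (adjusted p = 0.58).

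Metabolic genes that changed mostly fell. Of 24 genes of cholesterol synthesis 4 fell and none rose, with a median log2 fold change of -0.26. SREBF1, a transcription factor that drives lipid synthesis genes, fell from 157 and 120 CPM to 72.6 and 58.5 CPM (-1.06, SE 0.20, adjusted p = 0.0193), and the enzyme genes LSS (-0.66) and FDFT1 (-0.52) fell too. MAT2A, which makes S-adenosylmethionine, fell from 521 and 574 CPM to 257 and 279 CPM (-1.03, SE 0.10, adjusted p = 0.00245), and AHCYL1 was the other of 14 methionine cycle genes that fell (-0.40). Of 13 mitochondrially encoded genes 3 fell. MT-CYB, a subunit of complex III, went from 2681 and 2859 CPM to 1480 and 1630 CPM (-0.84, SE 0.08, adjusted p = 0.00209), with MT-ND6 at -1.29 and MT-CO3 at -0.43. Of 32 genes of apoptosis 2 rose, PMAIP1 and BCL2A1 (1.43), and the median log2 fold change was 0.07. With either gemcitabine library omitted none of the cholesterol or apoptosis genes was called, and 1 and 1 of the methionine and mitochondrial lists. With the GC trends removed 8 cholesterol and 6 mitochondrial genes were called lower, and of the apoptosis genes 3 were called higher and 3 lower. Over all genes that correction called 10.2% higher and 7.82% lower.

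Beyond these lists, the 10 largest rises and 10 largest falls among called genes with a mean of at least 50 counts and no overlap between groups hold further genes. Both gemcitabine libraries lay above both controls for 28.5% of all genes and below them for 24.4%. Among the rises were CNN1, the actin-binding protein calponin, which went from 1.56 and 1.45 CPM to 20.2 and 17.7 CPM (log2 fold change 3.64, SE 0.27, adjusted p = 0.000871), ZNF165, a zinc finger gene, from 1.61 and 1.65 CPM to 11.9 and 13.5 CPM (2.94, SE 0.19, adjusted p = 0.000696), and DHRS9, a retinol dehydrogenase (2.77). Among the falls were PIF1, a DNA helicase, from 22.4 and 18.8 CPM to 6.01 and 5.52 CPM (-1.82, SE 0.17, adjusted p = 0.00235), RAB17, a small GTPase of epithelial transport (-1.73), PLCH2, a phospholipase (-1.72), ZBTB12 (-1.68), MALL (-1.55), ZNF467 (-1.52) and the pseudogene RPL7AP4 (-1.59). Reads of a pseudogene and of its parent gene cannot be assigned with certainty. For MALL the CPM fell from 15.2 and 15.6 to 5.46 and 5.08. Its deposited FPKM fell less, from 103.8 and 111.2 to 75.4 and 78.4, so the size of its fall is uncertain. Exons overlap a gene on the opposite strand over 23.6% of their length in MCM2, 28.6% in DUSP6, 30.9% in HIST1H2BC, 24.6% in VIM and 20.1% in ZNF165, so these levels are uncertain in the same way as that of DDIT3.

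The direction of the calls differed along GC content. With genes in 5 equal groups by GC content, 148 were called higher and 11 lower in the lowest group (23.5% to 41.2%), and 82 and 129 in the highest (57.5% to 78.9%). With each library's GC trend removed these counts were 347 and 220, and 368 and 313. Over all genes the correction gave 1724 higher (10.2%) and 1323 lower (7.82%). They include 739 of the 759 and 496 of the 513 genes called without it, and no call changed direction. The part of the controls' GC trends in the split was not tested beyond this correction.

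**Figure D4:**
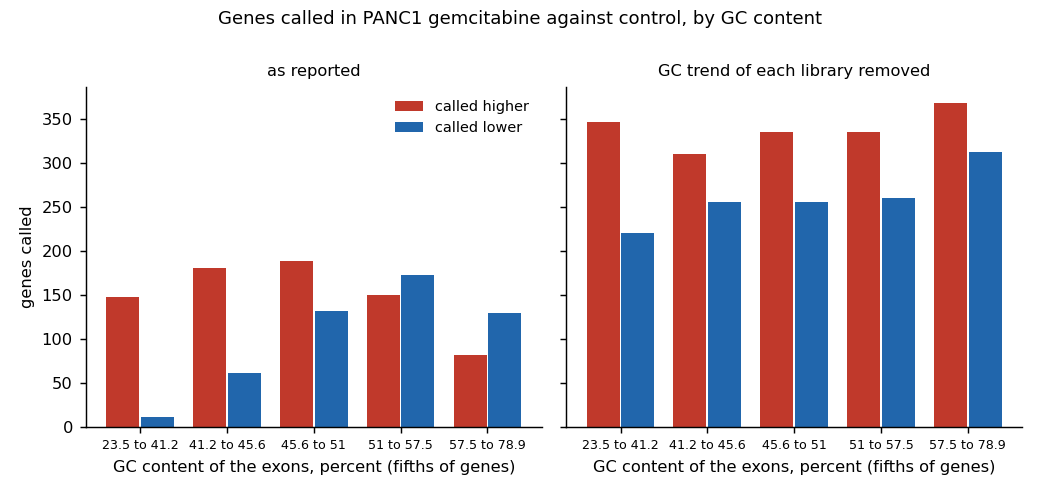
Bars are the numbers of genes called higher (red) and lower (blue) in 5 equal groups of genes by GC content of their exons, as reported on the left and with the GC trend of each library removed on the right. On the left the balance turns from 148 higher and 11 lower to 82 higher and 129 lower, and on the right higher calls outnumber lower ones in all 5 groups.

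The same drug contrast was available in 4 other libraries, the PANC1 cells that had genistein with or without gemcitabine. There 655 genes were called higher (3.87%) and 728 lower (4.31%). Of the 759 genes that rose without genistein 750 had a positive fold change with it (98.8%, against 50.3% of all genes tested), 377 were called and none was called lower. Of the 513 that fell, 507 had a negative fold change (98.8%, against 49.7%), 311 were called and none was called higher. The shared calls are 49.7% of the genes that rose without genistein and 57.6% of those that rose with it, and for falls 60.6% and 42.7%. ATF3 was at 16.4 and 19.5 CPM with genistein alone and at 129 and 135 CPM with both drugs, a log2 fold change of 2.88 (adjusted p = 0.000468). CSF1 was at 417 and 377 CPM and at 105.2 and 125.2 CPM (-1.78, adjusted p = 0.00154). The counts with genistein rest on few libraries too, since leaving out genistein replicate 1 or replicate 2 gave 27 and 29 calls, and leaving out the second library with both drugs gave 463.

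No gene passed in the test of whether the gemcitabine effect differed with and without genistein (limma-voom, adjusted p at least 0.7344). Of the 16909 genes tested, 832 had an unadjusted p under 0.05, no more than that threshold passes when no effect differs. By edgeR 0 genes passed, by DESeq2 4, and 2 with the GC trends removed. JUN had log2 fold changes of 1.71 without and 2.86 with genistein, and KLF6 0.97 and 0.34. Neither difference passed by limma-voom after adjustment over 16909 genes. The median SE of such a difference was 0.292, and differences near that SE cannot be told from 0 for most genes. Differences well above it can also go undetected, since that of ATF3 (-1.15) did not pass either.

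**Figure D5:**
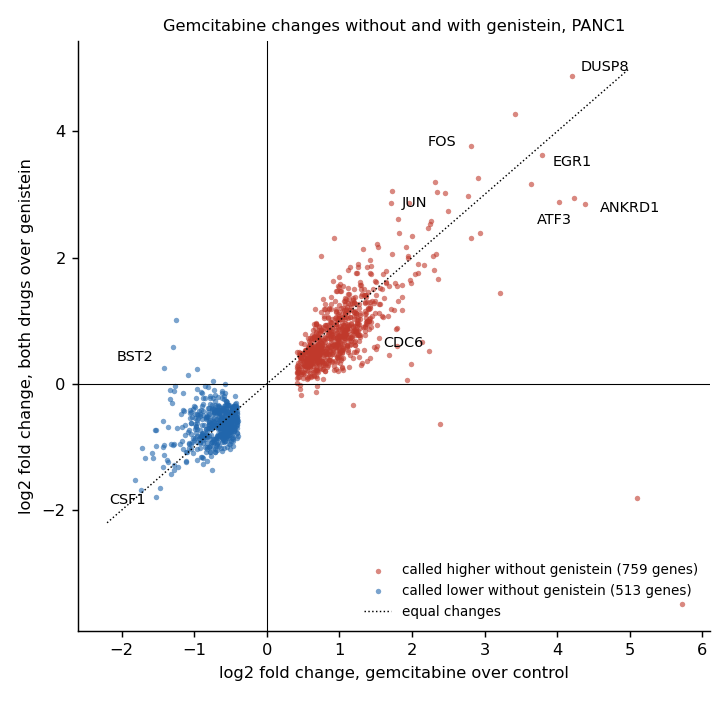
Each point is 1 of the 1272 genes called in gemcitabine against control, with that log2 fold change on the horizontal axis and the log2 fold change of both drugs over genistein on the vertical axis. Of the 759 genes called higher (red) 750 lie above 0 on the vertical axis, and of the 513 called lower (blue) 507 lie below it.

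In a model of all 16 libraries the effect of gemcitabine differed between PANC1 and MiaPaCa2 in 2728 of 17863 genes (15.3%) at an adjusted p of at most 0.05. The AP-1 gene FOSL2 had log2 fold changes of 1.94 in PANC1 and 0.29 in MiaPaCa2 (difference 1.61, adjusted p = 3.448e-05), DDIT3 of 2.30 and 0.19 (2.07, adjusted p = 3.415e-05) and BTG2 of 2.49 and -0.26 (2.71, adjusted p = 3.415e-05). The opposite order was found for CDKN1A, with 0.42 in PANC1 and 3.12 in MiaPaCa2 (difference -2.75, adjusted p = 9.315e-05). CDC6 rose more in PANC1 than in MiaPaCa2 (1.36 and 0.60, difference 0.71, adjusted p = 0.00161). For RRM2 the values were 0.88 and 0.72 (adjusted p = 0.44), for MAT2A -1.03 and -1.10 (adjusted p = 0.9) and for TNS3 -1.47 and -1.34 (adjusted p = 0.47), where no difference was detected.

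Of the 132 genes named in the text that passed the adjusted p, 29 passed it in the same direction under all 15 other fits, including the omission of each of the 4 libraries in turn. Among them were ATF3, EGR1, FOS, NR4A1, FOSL2 and DUSP8 of the early response, DDIT3, GADD45A, BTG2 and AEN of the stress response, CDC6, MCM4, GINS3, POLD3, RFC2, RRM2 and E2F2 of S phase, and the falls of KIF20A, CSF1, TNS3, SMAD3, MAT2A and MT-CYB. Without gemcitabine replicate 1 or replicate 2, 95 and 97 of the named genes no longer passed.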

How the data were processed

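RNA of PANC1 and MiaPaCa2 cells was sequenced from poly-A selected, stranded libraries, with 2 replicates a group. Per the labels and the submitters' processing notes, reads were aligned to GRCh37 with TopHat2 (2.0.4), reads with several alignments were removed with Picard (1.29), and HTSeq (0.6.1) and Cufflinks (2.1.1) were run. The authors deposited raw counts per gene (HTSeq) and FPKM per gene (Cufflinks), each in 1 table of the series. Which annotation release and which HTSeq strand option were used is not given in the sources used here. A table of isoform FPKM was not used here. Counts set all tests, and FPKM only the expression criterion, where 176 count identifiers had no FPKM row.

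Counts were filtered with filterByExpr, scaled by TMM (edgeR 4.0.16) and tested with limma-voom (limma 3.58.1) in a model of the 8 PANC1 libraries with a mean per group, with Benjamini-Hochberg adjustment over 16909 genes. p-values measure the spread between replicates of 1 line. The difference between the lines was tested in all 16 libraries. The GC correction was a loess fit (span 0.3) per library on exon GC content, which 98% of the genes had. Alternatives were edgeR's quasi-likelihood test, DESeq2 (1.42.0), other scalings, filters, models and thresholds, and the omission of each library. The code was tested on simulated data. Depth ranged from 12943482 to 31991860 counts.

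The 22 gene lists, the 7 marker lists and the comparison were chosen with earlier results of these data known. Named genes are the 10 largest rises and 10 largest falls among called genes with a symbol, a mean of at least 50 counts and no overlap between groups, members of the lists, and markers. Promoters are from RefSeq, 250 bases before to 50 after each start. Some genes that the lists hold are counted in them but not reported by name here.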

Additional observations from a re-analysis of the deposited data

Results flagged for a closer look

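Of 145 genes named in the text, 62 had a gemcitabine effect that differed between PANC1 and MiaPaCa2 at an adjusted p of at most 0.05 (limma-voom, difference of the contrasts, 16 libraries). Most of these genes were named because they were called or changed most in the same PANC1 libraries, which raises this number, so it is not compared with the 15.3% of all genes. The values are log2 fold changes in PANC1 minus those in MiaPaCa2, and the adjusted p ranged from 1.616e-06 to 0.04721. In 26 of the 62 the fold changes had opposite signs in the lines. A sign was counted whether or not the MiaPaCa2 change passed a test. Some MiaPaCa2 values were close to 0, such as 0.02 for PTTG1 and FDFT1, 0.05 for BST2 and -0.15 for DHRS9. Others were not, such as -1.49 for KLF6 and -1.05 for SNHG1. MiaPaCa2 counts of these genes are not given here, so opposite signs do not show opposite responses in each gene. Each line is 1 cell line, so a difference between them cannot be told apart from any other difference between the lines.

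Among immediate early and stress response genes the PANC1 value was above that of MiaPaCa2 for ATF3 (1.95), DUSP8 (3.15), EGR1 (2.33), JUN (1.38), FOSL2 (1.61), SGK1 (2.43), KLF4 (1.14), KLF10 (0.79), KLF6 (2.41), ATF4 (0.99), DDIT3 (2.07), PPP1R15A (1.04), CEBPG (0.91), GADD45A (1.72), BTG2 (2.71) and AEN (1.45). Among S phase and repair genes the same order was found for E2F8 (1.26), LIN54 (1.30), CDC6 (0.71), MCM10 (0.84), MCM4 (0.40), GINS3 (0.56), POLD3 (1.01), EXO1 (0.75), BRIP1 (1.21) and BARD1 (1.31). It was also found for CCND1 (0.37), IL11 (1.68), ANKRD1 (5.28), ID2 (0.73), ZNF165 (3.98), DHRS9 (2.87), SNHG15 (2.21), ZFAS1 (1.58), SNHG1 (2.26), SNHG17 (1.70), SNHG8 (1.14), SNHG3 (0.59), ZNF317 (0.86) and ZNF473 (1.39).

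The PANC1 value was below that of MiaPaCa2 for the cell cycle and histone genes CDKN1A (-2.75), CCNB2 (-0.43), KIF20A (-0.62), PTTG1 (-0.67), HIST1H2BD (-1.45), HIST1H2AC (-0.58) and HIST1H1C (-0.75). The same order was found for DUSP6 (-0.70), HBEGF (-0.78), DDIT4 (-1.22), NFKBIA (-0.81), TNFAIP2 (-1.30), CSF1 (-1.15), OAS3 (-1.11), BST2 (-1.503), SMAD3 (-0.81), LSS (-0.77), FDFT1 (-0.59), AHCYL1 (-0.41), PIF1 (-1.25), RAB17 (-1.54) and RPL7AP4 (-1.67). For CDKN1A the log2 fold change was 0.42 in PANC1 and 3.12 in MiaPaCa2.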

How the results depend on the processing

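The 1272 calls of gemcitabine against control became 584 by limma-trend on log2(FPKM + 1), 470 with only the 4 libraries compared, 2409 with all 16 libraries in one model, 3047 with GC correction, 398 when changes under 1 on the log2 scale were dropped, 269 at an adjusted p of at most 0.01, and 64 to 1919 with 1 library left out. In the presence of genistein the 1383 calls became 2160 by DESeq2, 843 with 4 libraries, 2600 with 16 libraries, 3580 with GC correction, 422 and 253 under the stricter thresholds, and 27 to 1185 with 1 library left out. For the effect with minus without genistein, DESeq2 called 4 genes and the GC correction 2, against 0. The 2728 differences between the lines became 1651 by limma-trend, 4657 with GC correction, 820 at an adjusted p of at most 0.01, and 857 to 5463 with 1 library left out. With library size alone 1484 genes were called, 78.6% of them higher against 59.7%, with a median over all genes of 0.139. The causes of these moves were not tested, except that stricter thresholds call fewer genes by construction. Leaving out control replicate 2 raised the calls, to 1919 and, between the lines, to 5463.

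The libraries carry replicate numbers, but the labels do not say that a number marks a shared culture or day. With the replicate number as a block 442 genes were called in gemcitabine against control, 499 in the presence of genistein and 1516 between the lines. With the block and the GC correction together these were 2824 and 3387 for the first pair. Deviations of libraries with the same number correlated across genes by 0.259, and by 0.0202 after GC correction. No named gene that passed turned its direction under any fit. A single library left in an arm is assumed to vary like the other groups. With 2 libraries a group, changes near the median SE of 0.197 could not be detected, and larger ones, such as those of JUNB and DCK, did not all pass.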

Other observations

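The groups below were chosen after their values were seen, and their counts and medians are descriptions. Of 419 zinc finger genes tested (symbols of ZNF and a number), 76 were called higher with gemcitabine and 2 lower, with a median log2 fold change of 0.40 against 0.028 over all genes. Their median GC content was 44.2%, against 48% over all genes, and with the GC trends removed 137 were higher and 11 lower, with a median of 0.32. In the presence of genistein 57 were higher and 1 lower. ZNF317 was at 53.7 and 52.4 CPM in the controls and at 106.7 and 101.3 CPM with gemcitabine (log2 fold change 0.97), and ZNF473 at 25.2 and 25 CPM and at 47.5 and 49.6 CPM (0.95).

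Of 27 HOX genes, which pattern the body axis, 8 were called lower and none higher, in the HOXB cluster (6 of 9) and the HOXC cluster (2 of 8). With the GC trends removed 5 HOXB and 3 HOXC genes were lower. HOXB6 was at 75.8 and 75.1 CPM in the controls and at 40.5 and 37.4 CPM with gemcitabine (log2 fold change -0.96), and HOXB8 and HOXB3 fell by 0.80 and 0.69 on the log2 scale. Of the exon length of HOXB6 16.3% overlaps the opposite strand.

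Of 16 host genes of small nucleolar RNAs 5 were called higher and 1 lower, with 6 higher and 3 lower after GC correction, and 9 were higher in the presence of genistein. SNHG1 was at 88.9 and 100.3 CPM in the controls and at 213 and 238 CPM with gemcitabine (log2 fold change 1.25). SNHG15 (1.35), ZFAS1 (1.25), SNHG17 (1.07) and SNHG8 (0.99) rose too, and SNHG3 fell by 0.79 on the log2 scale. Exons of ZFAS1 and SNHG8 overlap the opposite strand over 36.4% and 37.6% of their length. Of 81 cytosolic ribosomal protein genes 1 was called higher and 3 lower, 10 were lower after GC correction, 8 had a positive fold change, and the median log2 fold change was -0.22.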
